A study of Sus scrofa with 15 samples.

Results

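Deubiquitinase genes were followed through pig oocyte maturation by RNA-seq. Members were all genes of the deposited gene table whose pig Ensembl symbol starts with USP and a digit, UCHL or OTUD, or is OTUB1, OTUB2, BAP1, CYLD, ATXN3, STAMBP, BRCC3 or MYSM1, which gave 66 of the 22516 genes listed. Transcripts with counts were found for 64 of the 66, and 59 passed the filter on low counts. By protease family these 66 were 46 USP, 10 OTU, 4 UCH, 3 JAMM, 1 MJD and 1 CYLD gene, plus USP6NL, which matches the rule by name but encodes a GTPase-activating protein for RAB5. The rule used names only and no measured value, although it was chosen with earlier results of these data known.

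The study compared pools of pig oocytes in 3 groups. GV oocytes, at the germinal vesicle stage, were taken from fresh ovarian follicles without culture. MII oocytes had extruded the first polar body after up to 44 h of in vitro maturation of whole cumulus-oocyte complexes. Oocytes called 'damaged' had been through the same culture and lacked the polar body. There were 15 libraries, 5 per group. MII and 'damaged' libraries were also pooled in the tests (MIX, n = 10). The GV library with the fewest counts, replicate 3, was left out of the fits, so that GV had n = 4. No genetic change, strain or treatment other than the culture separates the groups, and all oocytes were freed of cumulus cells with hyaluronidase. Per the methods, the culture medium contained gonadotrophins (PMSG and hCG), EGF, insulin, cysteamine and sow follicular fluid. Stage, time in culture and exposure to these additives cannot be told apart in this design.

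Ubiquitin is attached to proteins by a cascade of E1, E2 and E3 enzymes, and deubiquitinases are the proteases that remove it. USP, UCH, OTU, MJD and CYLD enzymes are cysteine proteases and the JAMM enzymes are zinc metalloproteases. They rescue substrates from the proteasome, regenerate free ubiquitin from its precursors and from chains, sort receptors at endosomes, and edit the marks on histones H2A and H2B. A fully grown oocyte is transcriptionally almost silent, and meiosis from GV to MII depends on timed destruction of proteins by the anaphase-promoting complex, so the mRNA pool present at GV is translated, stored or degraded. The libraries were primed from the poly(A) tail, and therefore fewer transcripts and shorter tails cannot be told apart in these values.

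Each library held 11.96 to 23.6 M estimated counts, apart from GV replicate 3 with 6.4 M. All 14 oocyte markers with transcripts found, such as ZP3 and GDF9, were above 1 TPM (transcript level per length, with the same total in each library) in every library used, and their summed level ranged from 15669 to 21471 TPM in GV and from 6048 to 10191 TPM in MIX. Of 21 cumulus and granulosa cell markers, 13 had transcripts found and 1 (FST, 11.5 to 25.5 TPM) was above 1 TPM throughout. Their sum was 17.0 to 22.8 TPM in GV and 16.8 to 27.8 TPM in MIX. The granulosa markers AMH, INHA and INHBB were listed at 0 in 7, 9 and 10 of the 14 libraries, while FST, STAR and PTGS2 were at 0 in no library. The others with transcripts found were at 0 in 2 (FSHR) to 8 (INHBA) libraries. Among them TNFAIP6 reached 2.62 TPM in a MIX library and GJA1 1.24 TPM in a GV library. Summed theca and stroma markers lay at 7.75 to 13.6 TPM in GV and 3.24 to 15.5 TPM in MIX, and summed blood and immune markers at 7.85 to 13.9 TPM and 5.31 to 11.2 TPM. Of the 9 genes of these 3 lists that were tested, FST, PTGS2 and PECAM1 rose and COL1A2 and CD14 fell, and their part in the results was not tested.

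The scaling of the libraries bears on every fold change. With TMM factors, which set the bulk of moderately changed genes level between libraries, the 13222 genes tested had a median of -0.16 on the log2 scale between MIX and GV. Scaled by library size alone it was -1.06. From TMM to library sizes each member shifted by -0.91 to -0.86, and all 59 members kept their side of the median of all genes. Values below use TMM unless library sizes are named, and "rose" or "fell" means FDR under 0.01 in limma voom.

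Between GV and MIX the deubiquitinase mRNAs were rearranged in both directions, with USP44, USP53 and USP33 at the top and OTUB1, USP11 and OTUB2 at the bottom. Of the 59 tested members 28 rose, 13 fell and 18 did not pass, where 30.4% of all genes rose and 37.2% fell, 67.6% in all. The members' median was 0.46 on the log2 scale against -0.16 for all genes, and -0.44 against -1.06 on library sizes. On library sizes 13 members rose and 25 fell (12.1% and 60.5% of all genes). The 13 that rose on both scalings were USP44, USP53, USP33, STAMBP, USP8, USP45, CYLD, USP34, USP15, USP37, USP16, USP25 and USP14. All 13 members that fell with TMM also fell on library sizes, namely OTUB1, USP11, OTUB2, USP39, USP5, USP36, BAP1, OTUD5, OTUD4, USP10, USP19, USP4 and USP3. The other 15 members that rose with TMM did not pass on library sizes, and 5 of those 15 had a negative value there. No test was made of the members as a set.

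With the study's threshold for differentially expressed genes (DEGs, FDR under 0.01 with a log2 fold change beyond -2 or 2), 6 members were upregulated and 6 downregulated, where 4.27% and 16.7% of all genes were. Libraries of MIX lay entirely above those of GV for 26 members and entirely below for 12, against 24.3% and 29.4% of all genes. The members that passed with overlapping libraries were USP7, USP19 and USP46.

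**Figure D1:**
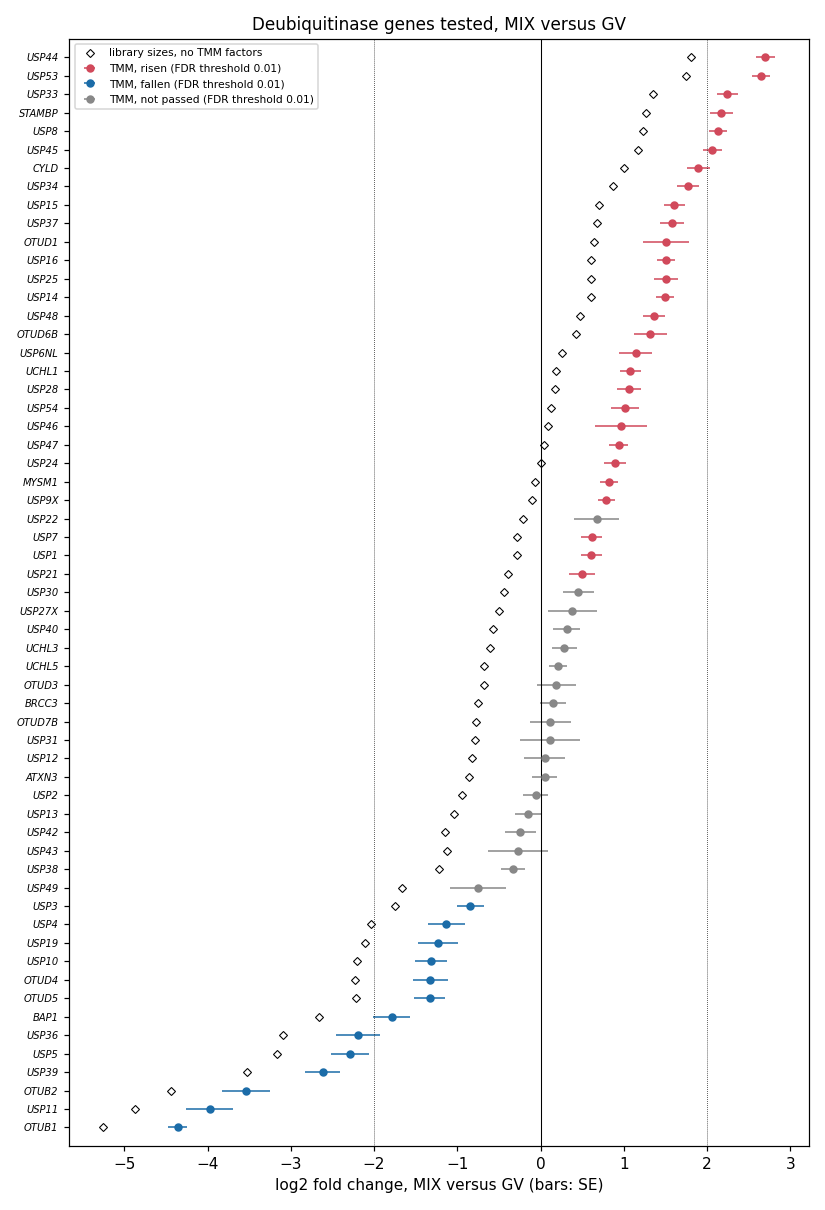
Log2 fold change of MIX over GV for the 59 tested members, sorted (horizontal axis; filled points with SE from TMM scaling, coloured by call; open diamonds from library sizes; dotted lines at the DEG threshold of 2). The diamonds lie to the left of the points throughout, 6 points lie beyond 2 and 6 beyond -2, and OTUB1 lies lowest at -4.36 ± 0.11.

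UCHL1 and OTUB1 were the most abundant deubiquitinase mRNAs in GV oocytes, and OTUB1 lost that place after maturation while UCHL1 kept it. UCHL1, a neuronal and germ cell hydrolase that frees ubiquitin from small adducts, had 2644 ± 174 TPM in GV (SD, n = 4) and 2771 ± 394 TPM in MIX (SD, n = 10). OTUB1, a K48-linkage-specific protease that also blocks certain E2 enzymes, had 2364 ± 343 TPM in GV (SD, n = 4) and 56.6 ± 7.19 TPM in MIX (SD, n = 10). Next in GV came UCHL3 with 766, UCHL5 with 300.0 and USP33 with 213 TPM, and in MIX USP33 with 498, USP44 with 493.5, UCHL3 with 459 and USP14 with 263 TPM. In MIX the levels of USP33 and USP44 differed by less than their SD, as did UCHL3 and USP44.

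Summed over the members, the level was 8138 ± 359.9 TPM in GV and 6233 ± 404 TPM in MIX (SD, n = 4 and 10). OTUB1 held 25.2 to 32.4% of that sum in GV and 0.79 to 1.06% in MIX. UCHL1 held 28.3 to 35.7% and 39.4 to 52.8%. Without these 2 genes the summed level was 2998 to 3394 TPM in GV and 3159 to 3685 TPM in MIX, which overlap.

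**Figure D2:**
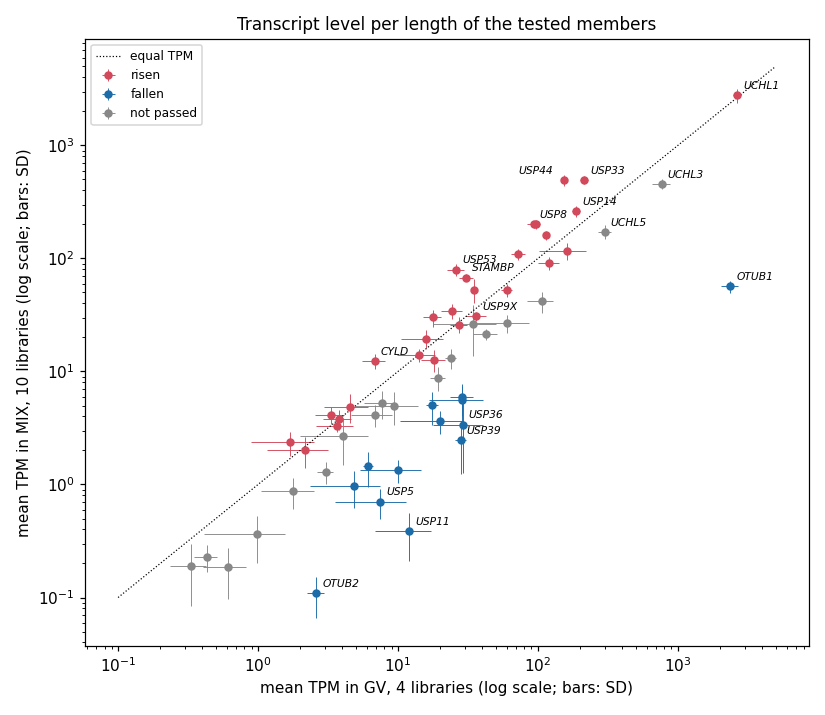
Mean TPM of each tested member in GV (horizontal, 4 libraries) and in MIX (vertical, 10 libraries), both on log scales with SD bars and coloured by the TMM call; the dotted line marks equal TPM. UCHL1 lies near the line at 2644 and 2771 TPM and OTUB1 far below it at 2364 and 56.6 TPM. TPM carries no TMM factor, so some members called risen lie on or below the line.

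Enzymes that recycle ubiquitin split by member. Of the 5 genes listed for this role, UCHL1 and USP14 rose, USP5 fell, and UCHL3 and UCHL5 did not pass. Among all genes 30.4% rose and 37.2% fell. UCHL1 stood at 1393, 1076, 1067 and 833 TMM-normalised CPM (counts scaled to a common library size) in GV replicates 1, 2, 4 and 5 and at 2019 to 2944 with a median of 2243 in MIX. The MIX libraries were all above the GV libraries (log2 fold change 1.08 ± 0.12 (SE), FDR 7.61e-08), although on library sizes the value was 0.19 with FDR 0.0911. USP14, a protease that trims chains at the proteasome, had 189.6, 161, 183 and 150.1 CPM in GV and 414 to 543 with a median of 498 in MIX. It rose on both scalings (log2 fold change 1.50 ± 0.11 (SE), FDR 7.12e-11; 0.60 on library sizes).

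USP5, which takes apart free ubiquitin chains, went the other way. Its GV libraries had 6.5, 9.29, 7.95 and 14.7 CPM and its MIX libraries 1.31 to 2.98 with a median of 1.84 CPM, with no overlap (log2 fold change -2.29 ± 0.23 (SE), FDR 1.15e-08, a 4.88-fold fall). UCHL3, which processes ubiquitin and NEDD8 precursors, had 457, 277, 334 and 225 CPM in GV and 263 to 454 with a median of 379 in MIX, and the groups overlapped (log2 fold change 0.29 ± 0.15 (SE), FDR 0.0925). UCHL5, the proteasome-bound partner of ADRM1, likewise overlapped with 222, 185, 205 and 194 CPM in GV and 196 to 267 with a median of 235 in MIX (log2 fold change 0.21 ± 0.10 (SE), FDR 0.0728). Library sizes gave falls for both (-0.61 with FDR 8.5e-05 for UCHL3, -0.68 with FDR 3.3e-06 for UCHL5). In UCHL5 the direction also turned when estimated counts were summed per gene without the length scaling (-0.31, FDR 0.00445). Isoform usage of UCHL5 is described below.

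The OTU family held the deepest fall. OTUB1 (chromosome 2, 8088528 to 8095555 in the RefSeq annotation of Sscrofa11.1) had 1893, 1254, 1642 and 1573 CPM in GV and 68.4 to 86.7 with a median of 76.6 in MIX. Every MIX library was below every GV library, and the difference of log2 fold change -4.36 ± 0.11 (SE), FDR 1.13e-16 is a 20.5-fold fall. Its paralog OTUB2 (chromosome 7, 115304809 to 115326055) was scarce already in GV at 4.64, 3.33, 3.36 and 3.79 CPM and lay at 0.0634 to 0.482 with a median of 0.346 CPM in MIX (log2 fold change -3.54 ± 0.28 (SE), FDR 4.28e-10). Its counts in MIX reached down to 0.984 in a library, so the size of this fall is less certain than its direction.

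Among the OTUD genes no single direction held. OTUD5, a regulator of interferon signalling, and OTUD4, which acts in alkylation repair, fell (-1.33 ± 0.19 and -1.32 ± 0.21, FDR 1.57e-06 and 9.2e-06). OTUD1 and OTUD6B rose with TMM (1.51 ± 0.28 and 1.32 ± 0.20, FDR 5.02e-05 and 3.98e-06) and did not pass on library sizes (0.64 and 0.42). OTUD3 and OTUD7B had 0.19 ± 0.24 and 0.12 ± 0.24, with FDR 0.47 and 0.665, and negative values on library sizes (-0.68 and -0.77). OTUD7A had 0 to 0.375 CPM in MIX and was not tested, and OTUD6A had no transcripts found. In all, 4 of the 8 tested OTU genes fell and 2 rose, where 37.2% of all genes fell and 30.4% rose. Their median was -0.60 against -0.16 for all genes. On library sizes 5 of the 8 fell and 0 rose (60.5% and 12.1% of all genes), with a median of -1.49 against -1.06.

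The 2 tested genes listed for the endosomal sorting machinery rose, where 30.4% of all genes did. USP8, which binds the ESCRT-0 adaptors STAM and STAM2 and spares receptors from lysosomal breakdown, had 214, 166, 149 and 157 CPM in GV. After culture it lay at 655 to 851 with a median of 743 CPM (log2 fold change 2.13 ± 0.11 (SE), FDR 3.93e-13). STAMBP, also called AMSH, a K63-specific metalloprotease that binds the same adaptors, had 35.3, 21.3, 26.4 and 19.4 CPM in GV and 95.2 to 131 with a median of 115 in MIX (log2 fold change 2.17 ± 0.14 (SE), FDR 1.57e-11). Both genes separated GV from MIX completely and rose on library sizes too (1.23 and 1.27). Their adaptors STAM and STAM2 rose less with TMM (0.63 ± 0.10 and 0.93 ± 0.11), and STAM had -0.26 and STAM2 0.03 on library sizes, neither of which passed. USP20, the third gene listed for this role, had at most 0.312 CPM and was not tested. USP8 lies at chromosome 1, 121306031 to 121376154, where its locus overlaps that of USP50, for which no transcript with counts was found.

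USP33, the paralog of USP20, was by contrast among the most abundant members. USP33 (chromosome 6, 135524372 to 135589742) acts on centrosome duplication and on the trafficking of adrenergic receptors, and stood at 459, 311, 392 and 303 CPM in GV and 1269 to 1983 with a median of 1739 in MIX. The lowest MIX library was above the highest GV library (log2 fold change 2.25 ± 0.13 (SE), FDR 2.03e-12). In TPM it went from 213 ± 14.1 to 498 ± 42.7 (SD, n = 4 and 10).

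Regulators of the cell cycle included the largest rise. USP44 (chromosome 5, 87864410 to 87890913), which holds back the anaphase-promoting complex at the spindle checkpoint and also takes ubiquitin off histone H2B, had 225, 189.6, 191 and 158 CPM in GV and 1033 to 1444 with a median of 1293 in MIX. This was a 6.5-fold rise (log2 fold change 2.70 ± 0.12 (SE), FDR 4.63e-14; 1.81 on library sizes), and in TPM the level went from 153 ± 5.6 to 493.5 ± 52. USP37, which counters the same complex on cyclin A, rose by 1.58 ± 0.15 (FDR 4.32e-09; 0.68 on library sizes). USP9X, a large X-linked protease known for its part in oogenesis in flies, averaged 136 ± 10.6 CPM in GV and 237 ± 19.5 in MIX (SD, n = 4 and 10). It passed with TMM (log2 fold change 0.79 ± 0.10 (SE), FDR 3.08e-07) and turned to -0.10 on library sizes, without passing there. USP2, which stabilises cyclin D1, did not pass at gene level (log2 fold change -0.06 ± 0.15 (SE), FDR 0.731). Of these 5 genes with a listed role in the cell cycle, USP33 included, 4 rose, with a median of 1.58. All genes had 30.4% risen and a median of -0.16. On library sizes 3 of the 5 rose and USP2 fell (-0.95, FDR 0.000101), where 12.1% of all genes rose and 60.5% fell.

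A pair of further members with large rises belonged to no role listed. USP53 (chromosome 8, 104500204 to 104560711), a tight-junction-associated member of the USP family, had 55.2, 46.4, 48.2 and 50.6 CPM in GV and 272 to 369 with a median of 309 in MIX (log2 fold change 2.65 ± 0.11 (SE), FDR 2.82e-14). USP45 (chromosome 1, 66387616 to 66454806), which acts on the repair nuclease subunit ERCC1, had 241, 194, 186 and 168 CPM in GV and 662 to 943 with a median of 834 in MIX (log2 fold change 2.06 ± 0.11 (SE), FDR 1.76e-12). Neither gene's groups overlapped, and both rose on library sizes (1.75 and 1.17).

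**Figure D3:**
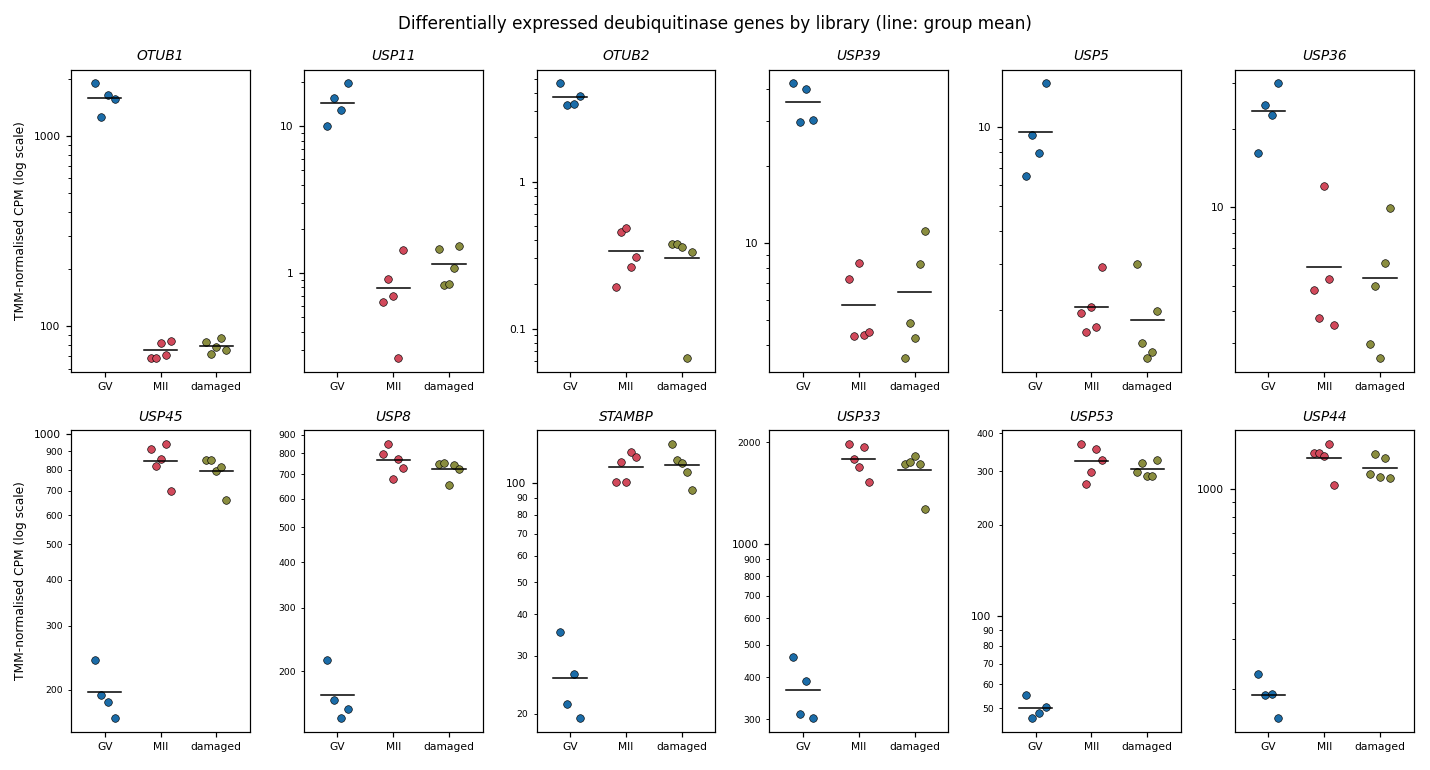
TMM-normalised CPM (log scale, a separate range in each panel) in each of the 4 GV, 5 MII and 5 'damaged' libraries for the 12 members that were DEGs; lines are group means. In all 12 panels the GV points are apart from the others, as for USP44 at 158 to 225 CPM in GV and 1033 to 1444 CPM in MIX, while MII and 'damaged' points share a range.

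Close paralogs parted in the group that includes the spliceosome-linked proteases. USP15, USP4 and USP11 are closely related in sequence. USP15 rose (log2 fold change 1.61 ± 0.13 (SE), FDR 4.03e-10; 0.71 on library sizes) and reached 109 ± 12.4 TPM in MIX. USP4 fell (log2 fold change -1.13 ± 0.22 (SE), FDR 0.000115), to 1.45 ± 0.496 TPM. USP11 (chromosome X, 41851534 to 41866357), which acts in homologous recombination through BRCA2 and PALB2, had 10, 15.5, 12.8 and 19.6 CPM in GV and 0.265 to 1.54 with a median of 0.881 in MIX (log2 fold change -3.97 ± 0.28 (SE), FDR 6.73e-11). The 10 MIX libraries of USP11 held as few as 5 counts and none reached a GV library.

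USP39, a catalytically inactive component of the U4/U6.U5 tri-snRNP of the spliceosome, had 41.9, 29.5, 39.8 and 30.1 CPM in GV and 3.57 to 11.12 with a median of 4.68 in MIX (log2 fold change -2.62 ± 0.21 (SE), FDR 4.97e-10). USP36, a nucleolar protease needed for ribosome production, had 16.2, 24.8, 22.7 and 30 CPM in GV and 2.63 to 12.1 with a median of 4.9 in MIX (log2 fold change -2.20 ± 0.27 (SE), FDR 2.02e-07). The highest MIX value of USP36 came from MII replicate 3 and was still below the lowest GV value. Positions are chromosome 3, 59121381 to 59156597 for USP39, chromosome 12, 3309176 to 3348531 for USP36 and chromosome 5, 63843742 to 63858835 for USP5.

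The histone group moved in both directions. Of 9 tested genes 4 rose and 2 fell, where 30.4% and 37.2% of all genes did. The median was 0.50 against -0.16 for all genes. On library sizes 2 of the 9 rose and 3 fell (12.1% and 60.5% of all genes). USP16, which removes ubiquitin from H2A before mitosis, rose on both scalings (1.51 ± 0.11, FDR 1.19e-10; 0.61 on library sizes). MYSM1, a metalloprotease for H2A, rose with TMM only (0.82 ± 0.11, FDR 4.66e-07; -0.07 on library sizes). BAP1, the UCH enzyme that removes H2A ubiquitin together with ASXL proteins, fell (-1.79 ± 0.22, FDR 2.13e-07), from 9.98 ± 4.64 to 1.33 ± 0.305 TPM. USP22, the H2B protease of the SAGA complex, had log2 fold change 0.67 ± 0.27 (SE), FDR 0.0284 and did not pass. It passed without MII replicate 3 (0.80, FDR 0.003), with DESeq2 (0.74, FDR 0.00956) and with a replicate block (0.83, FDR 0.00101), and had -0.21 with FDR 0.517 on library sizes. That library held 58.8 CPM of USP22 where the other MII libraries held 118 to 141. The other genes of the group that passed were USP44 and USP21 (risen) and USP3 (fallen). USP21 had 0.50 with TMM and -0.39 with FDR 0.042 on library sizes, where it did not pass.

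Members with roles in DNA damage were likewise divided. USP1, which acts on FANCD2 and PCNA, and USP7, which acts on MDM2 and p53, rose with TMM (0.61 ± 0.12 and 0.62 ± 0.13, FDR 0.00016 and 0.000187) and had -0.28 and -0.28 on library sizes, where neither passed. With genes limited to those of at least 10 CPM neither passed either (0.29 with FDR 0.0344 for USP1 and 0.29 with FDR 0.0425 for USP7), nor did USP1 with counts summed without length scaling (0.31, FDR 0.0215). BRCC3, the K63-specific metalloprotease of the BRCA1-A complex, did not pass (log2 fold change 0.15 ± 0.15 (SE), FDR 0.378; -0.75 on library sizes). USP28 rose with TMM and did not pass on library sizes (0.18, FDR 0.325), while OTUB1 and USP11 fell. The 6 genes held 3 rises and 2 falls, where 30.4% of all genes rose and 37.2% fell. On library sizes 0 of the 6 rose and 3 fell (12.1% and 60.5% of all genes).

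The remaining members described by name had smaller or single-gene roles. CYLD, the tumour suppressor that removes K63 and linear chains in NF-kappaB signalling, rose on both scalings (1.90 ± 0.14, FDR 1.02e-10; 1.00 on library sizes). ATXN3, the Machado-Joseph disease protease, showed log2 fold change 0.05 ± 0.15 (SE), FDR 0.781 and did not pass, with -0.85 with FDR 9.71e-06 on library sizes. USP19, which has forms anchored in the endoplasmic reticulum, fell (-1.23 ± 0.24, FDR 9.31e-05). USP30, which opposes mitophagy at the outer mitochondrial membrane, had log2 fold change 0.46 ± 0.19 (SE), FDR 0.0328 and -0.44 on library sizes and did not pass. USP47 and USP54 rose with TMM (0.94 ± 0.11 and 1.02 ± 0.16) and stood at 0.04 and 0.13 on library sizes. USP38 and USP42 did not pass (-0.33 ± 0.15 and -0.24 ± 0.19, FDR 0.0486 and 0.249) and fell on library sizes (-1.22 and -1.14). Of the 4 tested genes listed for inflammatory signalling 2 rose and 1 fell. Among the 3 activated by WDR48 2 rose with TMM and none rose on library sizes. All genes had 30.4% risen and 37.2% fallen with TMM, and 12.1% risen on library sizes.

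Of 20 listed partner proteins of these enzymes 19 were tested, 8 rose and 4 fell, where 30.4% and 37.2% of all genes did. On library sizes 3 of the 19 rose and 10 fell (12.1% and 60.5% of all genes). ABRAXAS2 rose with TMM (0.38) and fell on library sizes (-0.51). WDR48, the activator of USP1, USP12 and USP46, had 66.6 ± 0.865 TPM in GV and 184 ± 26.5 TPM in MIX (SD, n = 4 and 10) and the largest rise of the list (2.47 ± 0.12, FDR 2.8e-13; 1.58 on library sizes). DMWD, a WD-repeat protein of the same list, had 37.7 ± 17.1 TPM in GV and 1.13 ± 0.344 TPM in MIX (SD, n = 4 and 10) and the largest fall (-3.98 ± 0.21, FDR 9.17e-13). The proteases that WDR48 activates had 0.61 ± 0.12 (USP1), 0.05 ± 0.25 (USP12, not passing) and 0.96 ± 0.31 (USP46). ADRM1, the proteasomal receptor of UCHL5, fell (-2.01 ± 0.38, FDR 7.4e-05), with GV libraries spread from 7.16 to 73.9 TPM. The median of the partners was 0.30 against -0.16 for all genes, and -0.60 against -1.06 on library sizes.

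A list of further genes outside the naming rule held 17, not all of them proteases for ubiquitin, as SENP8 cleaves NEDD8. Of 15 tested, 4 rose and 8 fell, where 30.4% and 37.2% of all genes did. On library sizes 4 rose and 10 fell (12.1% and 60.5% of all genes). Their median with TMM was -0.45 against -0.16 for all genes. ZUP1, a protease for long K63 chains, rose most (2.28 ± 0.14, FDR 1.03e-11; 1.38 on library sizes). JOSD2, a relative of ATXN3, fell most (-3.73 ± 0.31, FDR 7.42e-10). The mRNA for ubiquitin itself was plentiful, while protein was not measured. UBB, a polyubiquitin gene, had 13887 ± 1222 TPM in GV and 22008 ± 1863 TPM in MIX (SD, n = 4 and 10). Among the 7 tested genes for ubiquitin and its E1 enzymes 4 rose and 1 fell, where 30.4% and 37.2% of all genes did. The gene that fell with TMM was RPS27A, a fusion of ubiquitin and a ribosomal protein (-0.92 ± 0.14). On library sizes 2 of the 7 rose and 3 fell.

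Compared separately with GV, MII and 'damaged' oocytes gave nearly the same counts of members. In MII versus GV 26 members rose and 13 fell, where 28.2% and 34.2% of all genes did. In 'damaged' versus GV 28 rose and 14 fell, where 28% and 33.4% of all genes did. Both comparisons share the GV libraries. USP21 and USP46 rose in MIX and did not pass in MII (FDR 0.0305 and 0.0217), USP46 did not pass in 'damaged' either (FDR 0.0236), and USP22 (0.91, FDR 0.00819) and USP38 (-0.49, FDR 0.00740) passed in 'damaged' without passing in MIX.

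The direct comparison of MII with 'damaged' oocytes asked whether oocytes without a polar body differ. No member passed, and the smallest FDR among members was 0.9999 in limma voom. None of all 13222 genes passed either (0%), and 195 of them (1.47%) had an unadjusted p under 0.05. DESeq2 and edgeR called no member as well. At an unadjusted p under 0.05, 2 of 59 members differed by limma voom, 2 by edgeR and 2 by DESeq2, none of which passed after adjustment. With limma voom these were USP27X (log2 fold change 0.65) and USP38 (0.33), both higher in MII.

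At gene level the precision allowed differences of moderate size to be bounded, in a fit without pairing whose spread was shared with the GV libraries. Isoform usage was not tested between MII and 'damaged'. The study reported decreased isoform usage there for RAB4B and DTNBP1, which are not members. The 95% interval of the log2 fold change lay wholly within -1 and 1 for 54 of the 59 members, and its half-width was 0.22 to 0.99 with a median of 0.36. The intervals that reached beyond belonged to OTUB2, USP11, USP22, USP27X and USP43. UCHL1 had -0.05 (95% interval -0.33 to 0.23), OTUB1 -0.08 (-0.35 to 0.20) and USP44 0.12 (-0.14 to 0.37).

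**Figure D4:**
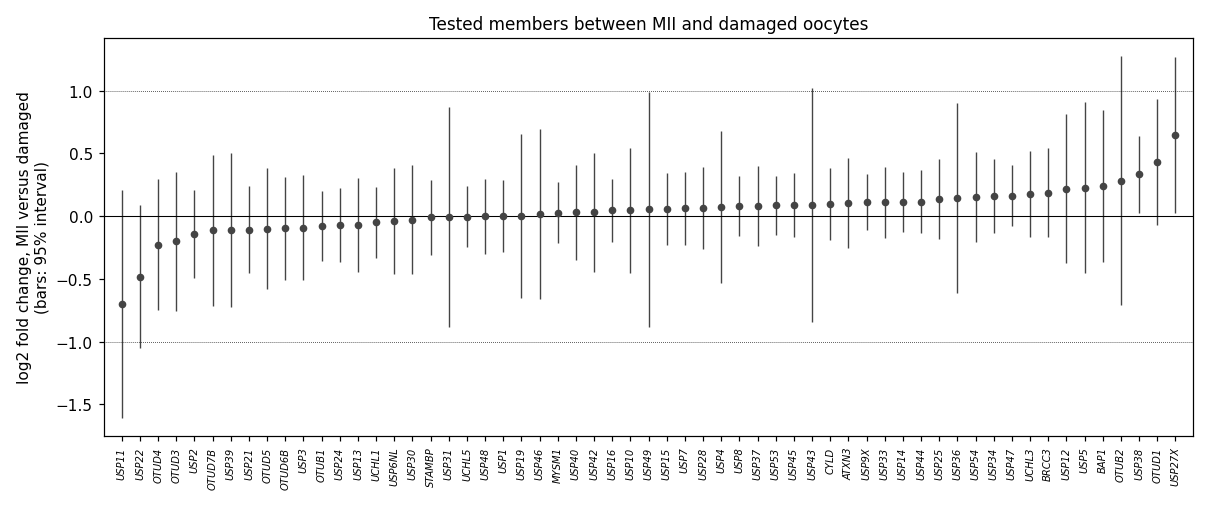
Log2 fold change of MII over 'damaged' with its 95% interval (vertical axis) for the 59 tested members, sorted; dotted lines mark -1 and 1. All points lie within -0.70 (USP11) and 0.65 (USP27X), and 54 intervals lie within the dotted lines.

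Isoform usage was examined for members with several transcripts. An isoform fraction is the share of a gene's TPM held by 1 transcript, and dIF is its difference between MIX and GV in percentage points here. Testing was limited to genes above 1 TPM whose isoforms differed by over 10 points somewhere in the gene, so the genes entering the test had already been selected for a difference. Of 26 members that entered, 23 had a called isoform (FDR under 0.01 and an absolute dIF over 10 points), as did 63.3% of all 4114 genes tested. Of their 81 isoforms 51 were called, against 43.1% of all 11693 isoforms. USP11, USP40 and USP48 had none. At gene level, 14 of the 23 members rose, 4 fell and 5 did not pass. The most used isoform differed between GV and MIX in 13 of the 26 members, against 42.9% of all 4114 genes tested.

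Exchanges of the most used isoform were seen in USP2, USP38 and USP42, none of which passed at gene level with TMM on length-scaled counts. With counts summed without length scaling USP2 (-0.85, FDR 4.21e-05) and USP42 (-0.95, FDR 4.61e-05) fell, and at 10 CPM USP38 fell (-0.65, FDR 0.000378). In USP2 the isoform ENSSSCT00000016486.5 of 3077 bases held 87.2, 100, 97.7 and 99.8% in the GV replicates and 16 to 26.7% in MIX with a median of 21.1%. The isoform ENSSSCT00000061854.2 of 1432 bases took its place, with 12.8, 0, 2.34 and 0% in the GV replicates and 73.3 to 84% in MIX with a median of 78.1% (FDR 3.26e-11). In USP38, which silences interferon responses, the isoforms of 4467 and 4569 bases changed places. The former held 72.4, 79.5, 83.1 and 72.5% in the GV replicates and 0.0001 to 9.88% in MIX with a median of 0.361% (FDR 5.63e-05). USP42 had lower counts, and its isoform of 2265 bases held 32.1, 0, 18.6 and 0% in the GV replicates and 86.7 to 97.4% in MIX with a median of 90.3% (FDR 1.28e-09). Its isoform of 4149 bases ranged from 7.22 to 100% among the GV libraries, so the share in GV is poorly fixed.

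Members that rose changed isoforms as well. USP8 lost share from its isoform of 4715 bases, which held 55.1, 56.9, 57 and 57% in the GV replicates and 13.5 to 18.7% in MIX with a median of 15.2% (FDR 9.32e-166). Isoforms of 4360 and 4141 bases gained it, going from 19.6% in GV to 43.7% in MIX and from 14.9% in GV to 37.3% in MIX. In USP14 the isoform of 2254 bases had 54.8, 62.9, 61.2 and 66.1% in the GV replicates and 31.2 to 37.6% in MIX with a median of 35.2%. Another of 2184 bases was near absent in GV and had 5.83, 0.491, 0 and 0% in the GV replicates and 21.1 to 32.7% in MIX with a median of 29.4% (FDR 2.43e-08). In CYLD the isoform of 3075 bases had 18.2, 0, 7.72 and 0% in the GV replicates and 37.7 to 54.4% in MIX with a median of 48.5% (FDR 3.51e-09), and that of 6989 bases went from 22% in GV to 5.02% in MIX. GV and MIX libraries did not overlap for any of these isoforms of USP8, USP14 and CYLD.

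USP47 gained an isoform of 4071 bases that had 0, 0, 0.562 and 0.503% in the GV replicates and 3.71 to 50.6% in MIX with a median of 37.1% (FDR 2.74e-14). In USP1 the isoform of 2854 bases had 47.2, 24.7, 31.6 and 39.1% in the GV replicates and 60.5 to 70.6% in MIX with a median of 66.2% and its single counterpart of 6266 bases the rest. USP44 shifted from its isoform of 4551 bases toward that of 1528 bases, which had 35, 42.3, 28.9 and 31.9% in the GV replicates and 50.9 to 60.5% in MIX with a median of 52.7%. The 3 genes share the pattern that the isoform which gained is shorter than the most used one in GV. Over the 13 members whose most used isoform differed, the one most used in MIX was the shorter in 9 and the longer in 4. Among all 1766 genes whose most used isoform differed, the one of MIX was shorter in 54.7% and longer in 45.2%.

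UCHL5 and MYSM1 likewise shifted without overlap. The isoform of 1096 bases of UCHL5 had 47, 34, 45.6 and 41.2% in the GV replicates and 64.9 to 76.9% in MIX with a median of 70.1% (FDR 4.07e-19). The isoform of 2479 bases of MYSM1 had 14.8, 26.9, 23.1 and 33% in the GV replicates and 2.34 to 4.62% in MIX with a median of 3.93% (FDR 1.72e-27). In USP15 the isoform of 2984 bases had 46, 52.3, 57.6 and 51.4% in the GV replicates and 16.7 to 33.9% in MIX with a median of 23.7% (FDR 2.19e-16). For these 3 genes the isoform that gave way in MIX held 24.5% or more of the gene in GV on average.

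The smallest exchanges, with dIF of 10.4 to 16.1 points, were called in USP37, USP16, USP54 and USP7. USP16 had 51.1, 45.3, 50.6 and 49.5% in the GV replicates and 57.1 to 64.2% in MIX with a median of 61.4% in its isoform of 3212 bases. USP37 had 22.1, 20, 23 and 25.7% in the GV replicates and 11.7 to 13.3% in MIX with a median of 12.3% in its isoform of 6580 bases. USP7 had 88, 95.9, 91.9 and 97% in the GV replicates and 56.9 to 89.1% in MIX with a median of 77.4% in its isoform of 4476 bases. Of these, USP16 and USP37 separated the groups and USP7 overlapped. USP54 overlapped too, with 100, 100, 100 and 85.3% in the GV replicates and 53.4 to 100% in MIX with a median of 84.6% in its isoform of 5573 bases.

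In the remaining called members libraries of the same group scattered widely, more in GV for STAMBP and OTUD6B and more in MIX for ATXN3 and USP19. STAMBP had 40.5, 56.6, 23.3 and 50.9% in the GV replicates and 8.29 to 30.3% in MIX with a median of 16.3% in its isoform of 2206 bases, and ATXN3 54.5, 66, 61.3 and 70.5% in the GV replicates and 17.4 to 55.6% in MIX with a median of 41.2% in that of 1847 bases. OTUD6B had 65.7, 55.6, 22.4 and 39.5% in the GV replicates and 73.8 to 92.8% in MIX with a median of 86.5% in its isoform of 1113 bases. USP19 had 14.5, 13.3, 8.96 and 11.7% in the GV replicates and 12.62 to 62.4% in MIX with a median of 27.2% in its isoform of 4551 bases. Of these 4 members OTUD6B alone had groups that did not overlap, and OTUD6B and USP19 rested on means of 32.8 and 19.1 counts per library for the isoform named.

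USP36, USP39 and USP4, which fell, had few counts left in MIX to divide among isoforms. USP36 had 93.3, 88.5, 90.4 and 78.4% in the GV replicates and 25.7 to 55.7% in MIX with a median of 40% in its isoform of 1825 bases. USP39 had 0, 0, 0 and 0% in the GV replicates and 0 to 86.1% in MIX with a median of 57.3% in its isoform of 1509 bases, at a mean of 15.3 counts per library. USP4 had 0, 0, 0 and 0% in the GV replicates and 0 to 73.2% in MIX with a median of 56.9% in its isoform of 2684 bases, at a mean of 16.6 counts. The isoforms named in USP39 and USP4 were at 0 in every GV library and also at 0 in at least 1 MIX library, and the locus of USP4 overlaps 2 other annotated loci.

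**Figure D5:**
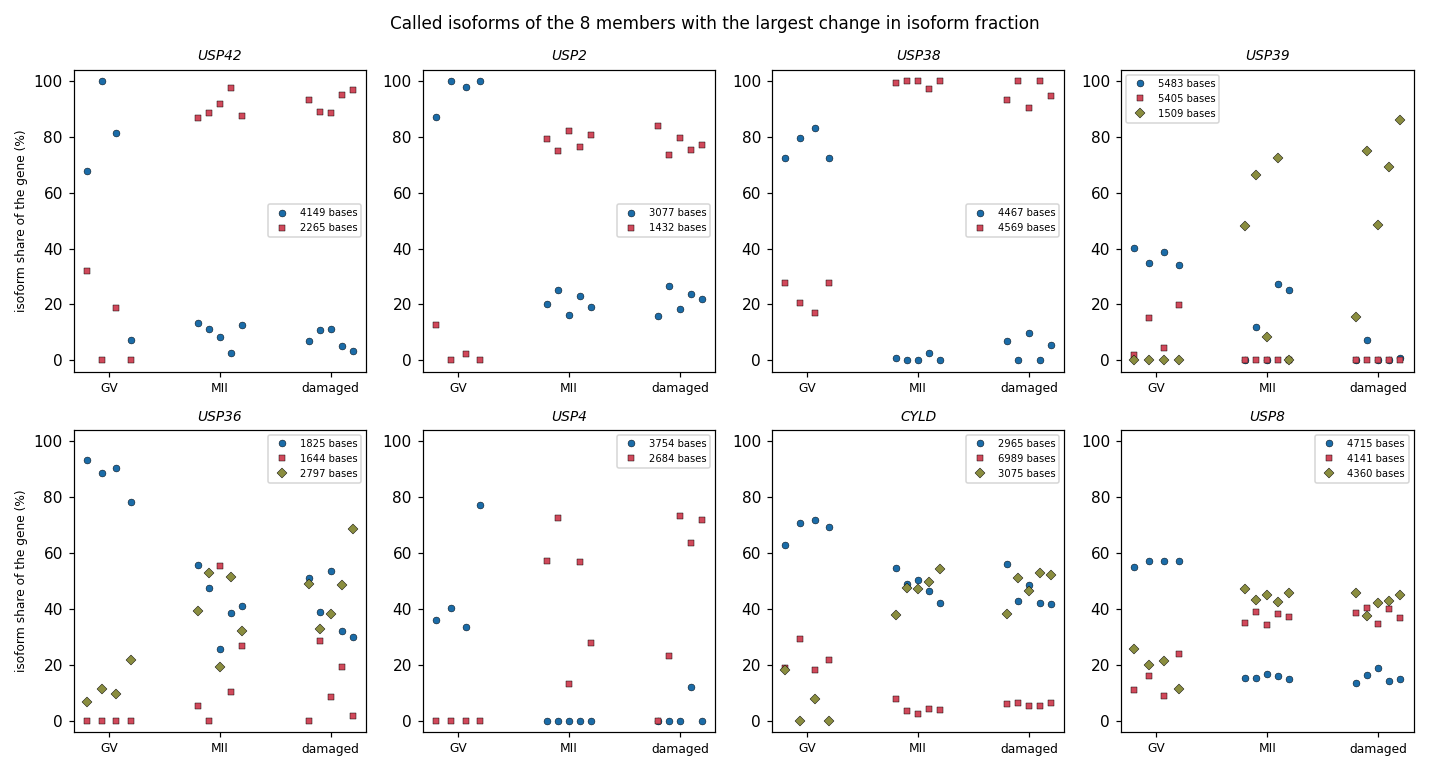
Share of the gene's TPM (percent, vertical axis) held by each called isoform in the 4 GV, 5 MII and 5 'damaged' libraries, for the 8 members with the largest dIF; symbols mark isoforms by transcript length. The exchange is sharp in USP2, where the isoform of 3077 bases lies at 87.2 to 100% in GV and 16 to 26.7% in MIX, and scattered in USP39 and USP4.

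Members not covered by a test were USP18, USP20, USP35, USP51 and OTUD7A, whose TMM-normalised level was at most 1.15 CPM in GV and 0.48 CPM in MIX, and USP50 and OTUD6A, for which no transcript with counts was found. Of the 59 tested members 54 had at least 10 counts in every library. RefSeq places another locus over part of the locus of 13 of the 66 members, among them USP44 (METAP2), USP53, USP8, USP14 (THOC1) and USP9X. Reads from exons shared between such loci cannot be assigned with certainty in libraries that do not keep strand.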

How the data were processed

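RNA from 15 pools of pig oocytes (5 GV, 5 MII, 5 'damaged') was reverse-transcribed with the SMART-Seq HT kit and sequenced as single-end reads. Per the labels and the study's methods, the authors trimmed the reads, quantified them with Kallisto 0.43 against the Ensembl cDNA of Sscrofa11.1, and deposited for each library the estimated counts and TPM of every transcript, together with a gene table of estimated counts scaled for length (tximport, lengthScaledTPM). Names of that table's columns and the libraries holding the same totals disagree in part. Only the 8 columns that match the library they name were used, and 7 were not used. From these 8 columns the transcripts of each gene were found (13641 of 13649 genes that reached 10 counts in 2 or more used columns, matching the deposited counts to within 9.4e-06%), and length-scaled gene counts were then computed for all 15 libraries from the transcript files. The genes placed held at least 99.99% of the estimated counts of each library, which were 6.4 to 23.6 M and set the precision of low values.

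Genes were filtered with filterByExpr over the 3 groups (at least 10 counts), scaled with TMM (edgeR 4.0.16) and tested with limma 3.58.1 voom. MIX versus GV was fitted with 2 groups and the other comparisons with 3 groups, and p-values were adjusted by Benjamini-Hochberg over all genes. The methods name no scaling, so library sizes were run as an alternative beside edgeR's quasi-likelihood test and DESeq2 1.42.0 (counts rounded). Isoforms of genes over 1 TPM with fractions over 0.05 were tested with the DEXSeq model in DESeq2 on rounded estimated counts. The steps were tested on simulated data. Replicates are independent collections according to the methods, and no library pair agreed within sampling noise. Symbols came from the Ensembl gene IDs and positions from RefSeq by symbol (66 of 66). No sequences are printed.

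The members and lists were chosen with earlier results of these data known. Named were all members of the small families, USP1, USP5, USP7, USP9X, USP14, USP16, USP22 and USP30, every DEG, the 5 largest rises and falls that passed, the 5 highest by TPM in GV and in MIX, and every member with a called isoform. Others are named where they complete a count and were chosen after their values were seen.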

Additional observations from a re-analysis of the deposited data

Results flagged for a closer look

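Of 196 groups of 4 or 5 libraries examined for a single library far from the rest by Dixon's test, 15 were flagged, where chance flags about 1 in 20. In MII, replicate 1 was highest for USP16 (457 CPM, the others 390 to 402), and replicate 3 was lowest for USP22 (58.8 CPM, the others 118 to 141) and highest for USP36 (12.1 CPM, the others 3.52 to 5.29) and USP37 (121 CPM, the others 84.0 to 90.7). In 'damaged', replicate 1 was highest for BAP1 (5.42 CPM, the others 2.76 to 3.31), replicate 4 lowest for OTUB2 (0.0634 CPM, the others 0.331 to 0.376), replicate 3 highest for UCHL1 (2944 CPM, the others 2048 to 2280) and lowest for USP8 (655 CPM, the others 726 to 753), and replicate 5 lowest for USP33 (1269 CPM, the others 1725 to 1823).

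Among isoform shares, GV replicate 1 held 5.83% of the USP14 isoform of 2184 bases (the others 0 to 0.491%) and 55.1% of the USP8 isoform of 4715 bases (the others 56.9 to 57.0%), and GV replicate 5 held 85.3% of the USP54 isoform of 5573 bases (the others 100%). 'Damaged' replicate 2 held 53.4% of that USP54 isoform (the others 79.5 to 88.5%), 'damaged' replicate 5 held 62.4% of the USP19 isoform of 4551 bases (the others 17.5 to 27.7%), and MII replicate 4 held 2.78% of the USP38 isoform of 4467 bases (the others 0.0001 to 0.702%).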

How the results depend on the processing

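Library sizes in place of TMM moved the counts of members most. In MIX versus GV 13 members rose and 25 fell, and 0 were upregulated and 12 downregulated past the DEG threshold, while the groups taken singly gave 13 risen and 22 fallen members in MII versus GV and the same 13 and 22 in 'damaged' versus GV. The filter at 10 CPM left 2 upregulated members past the DEG threshold. Other alternatives kept every count within 1.5 times its value.

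Among the members named by the rule above, direction turned on library sizes for ATXN3 (-0.85), BRCC3 (-0.75), MYSM1 (-0.071), OTUD3 (-0.68), OTUD7B (-0.77), UCHL3 (-0.61), UCHL5 (-0.68), USP1 (-0.28), USP7 (-0.28), USP9X (-0.10), USP22 (-0.21) and USP30 (-0.44). At 10 CPM it turned for ATXN3 (-0.27), BRCC3 (-0.17), OTUD3 (-0.13), UCHL3 (-0.034) and UCHL5 (-0.11). Estimated counts summed per gene turned ATXN3 (-0.010) and UCHL5 (-0.31), edgeR turned ATXN3 (-0.00238), and all 5 GV libraries turned OTUD3 (-0.10). Leaving out 1 library turned ATXN3 without GV replicate 2 or 5 (range -0.085 to 0.22), OTUD3 without GV replicate 1 (-0.093 to 0.36) and USP2 without GV replicate 5 (-0.23 to 0.11). Calls changed with the same direction in some named members too. Summed counts made USP2 (-0.85) and USP42 (-0.95) pass as falls and ended the call of USP1 (0.31). The filter at 10 CPM ended those of USP1 (0.29) and USP7 (0.29) and made USP38 pass (-0.65). UCHL3 passed without GV replicate 1 (0.49, FDR 0.00357), and USP22 passed with DESeq2 (0.74), under a replicate block (0.83) and without MII replicate 3 (0.80). The cause of these changes was not tested.

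Leaving out 1 library at a time gave 39 to 41 changed members in MIX versus GV (26 to 28 risen, 13 fallen; 5 to 7 up and 6 to 7 down past the DEG threshold), 39 to 40 in MII versus GV, 39 to 42 in 'damaged' versus GV, 0 in MII versus 'damaged', and 20 to 23 members with a called isoform (44 to 52 isoforms). The labels do not say that a replicate number marks a shared collection. The methods describe 5 collections with oocytes of each group, so the groups may share them. Of 13 same-number pairs 3 correlated above 0.1, so the numbers were not taken to pair the libraries, although 9 of 14 libraries correlated best with their own number, which is a hint of pairing from the data. With a replicate block 42 members changed in MIX versus GV, 39 in MII versus GV, 40 in 'damaged' versus GV and 0 in MII versus 'damaged', and 22 members had a called isoform. In MII versus 'damaged' the block in limma voom gave 353 of all 13222 genes an unadjusted p under 0.05, against 195 without it. The smallest FDR of all genes was then 0.0232, against 0.9999 without the block, and the smallest among members was 0.9997. Among the named members in MIX versus GV, the block changed the call of USP22 alone. Depth limits USP11 and OTUB2, which held few counts in MIX.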
